A study of Hydra vulgaris with 12 samples.

Results

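The 4 h and 6 h libraries of a Hydra head regeneration series, 4 libraries in all, were taken as one group and set against the 2 libraries of 0 h. These 6 libraries belong to a set of 12, with 2 at each of 0, 2, 4, 6, 12 and 48 h after bisection. Of the 17353 transcripts in the table, 14283 reached 1 RPKM in at least 2 of the 12 libraries and were tested. RPKM divides the reads of a transcript by its length and by the mapped reads in that library. All groups are strain 105 of Hydra magnipapillata, listed as Hydra vulgaris, with no transgene and no drug. Each library came from a pool of 50 to 100 asexual polyps with a young bud, starved for 1 day. Polyps were cut at the lower border of the uppermost body region, R1, and the next tissue down, R2 and R3, was collected after 4 or 6 h of regeneration, or at 0 h. The tissue is therefore the trunk piece below the wound, not sorted by cell type. Uncut polyps kept for the same hours are not among the samples, so the cut and the hours kept cannot be told apart.

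Hydra is a cnidarian polyp whose body column regrows a head after decapitation. Cells at the wound edge become a head organizer, a small group of cells that instructs the surrounding tissue to form a head. Wnt3, a secreted ligand of the Wnt/beta-catenin pathway, is expressed at the tip of the adult head and is an early gene of the new organizer. The hours before tentacles appear are the period in which this organizer is set up.

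The authors' table pairs 1 identifier with a gene name, Wnt3. The other transcripts carry RefSeq accession numbers, with the prefix XM for predicted mRNAs and XR for predicted non-coding RNAs, and they are described here by level and by time course. Lists of signalling genes and of cell type markers therefore had at most 1 member that could be found, under the minimum of 5, and the labelled tissue could not be checked against markers.

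Wnt3 (NM_001287363.1) was higher in all 4 libraries of 4 h and 6 h than in both 0 h libraries. Its RPKM in the 4 h libraries was 6.91 and 5.29, in the 6 h libraries 8.30 and 6.15, against 1.98 and 2.72 in the 0 h libraries. At the other times Wnt3 stood at 3.78 and 4.30 RPKM (2 h), 6.71 and 8.93 RPKM (12 h) and 12.4 and 10.1 RPKM (48 h). The mean was 6.66 ± 1.28 RPKM (SD, n = 4) at 4 h and 6 h and 2.35 ± 0.522 RPKM (SD, n = 2) at 0 h, a ratio of 2.83. On the log2(RPKM + 1) scale Wnt3 rose by 1.19 (SE 0.22, limma adjusted p = 0.00365). A pseudocount of 5 in place of 1 put this change at 0.66, below the minimum of 1 required for a call (adjusted p = 0.00543). The change between 4 h and 6 h was 0.21, with a 95% interval of −0.40 to 0.82, and did not pass the test (adjusted p = 1).

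Across the table, 763 transcripts rose and 1301 fell at 4 h and 6 h relative to 0 h. A call required a log2 fold change of 1 or more in size together with a Benjamini-Hochberg adjusted p from limma of less than 0.05. Calls in either direction made up 14.5% of the tested transcripts, rises 5.34% and falls 9.11%. On the deposited scale the called rises were the larger changes, with a median log2 fold change of 1.60, against −1.28 for the falls. Whether this holds after the libraries are rescaled was not tested. Of the rises, 240 (31.5%) changed by at least 2 on the log2 scale, and of the falls, 105 (8.07%). Chosen for opposite directions, the rises had a median of 75.9 RPKM at 4 h and 6 h and 21.5 RPKM at 0 h, and the falls 13.3 RPKM at 4 h and 6 h and 34.4 RPKM at 0 h.

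Whether most of the falls were called depended on how the libraries were scaled. For the median tested transcript the log2 fold change of 4 h and 6 h over 0 h was −0.29 as deposited and −0.01 after median-ratio scaling, which divides a library by its median ratio over transcripts to their geometric means. With that scaling 1146 transcripts rose and 497 fell, so that rises made up 69.8% of the calls in place of 37.0%. Of the 763 rises 759 were kept, and of the 1301 falls 497. Quantile normalization gave 1026 rises and 724 falls. Leaving out 0 h replicate 2 reduced the calls to 1333, 490 rises and 843 falls. In all 12 fits that each left out 1 library, 402 rises and 573 falls were kept in the same direction, and 402 and 345 of these also passed after median-ratio scaling.

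**Figure D1:**
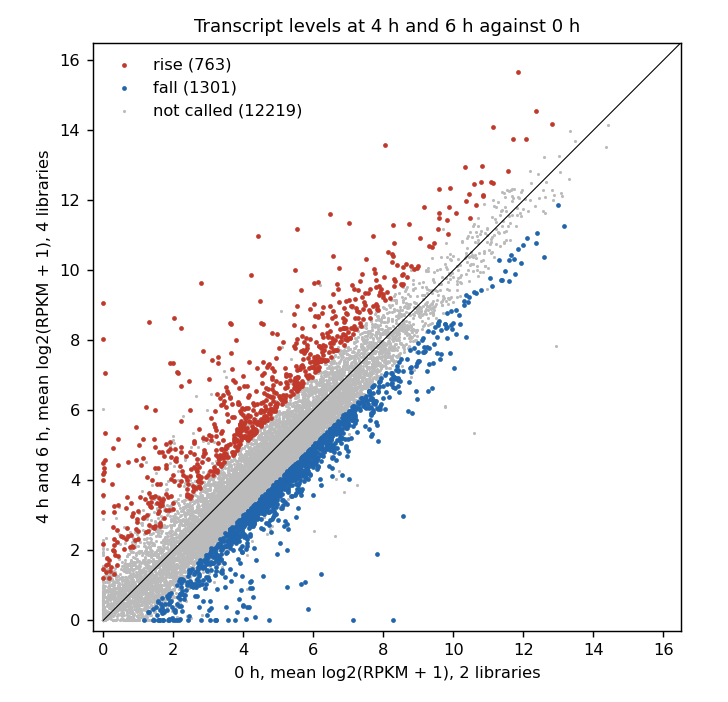
Mean log2(RPKM + 1) of each of 14283 tested transcripts in the 4 libraries of 4 h and 6 h (vertical) against the 2 libraries of 0 h (horizontal), with equal levels on the diagonal line. On this deposited scale the 763 rises (red) reach farther from the diagonal than the 1301 falls (blue). The most abundant transcript of 4 h and 6 h, XM_002168126.2, is the topmost red point.

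Without a model, all 4 libraries of 4 h and 6 h lay above both 0 h libraries for 2192 transcripts (15.3% of those tested) and below both for 6268 (43.9%). After median-ratio scaling these counts were 3773 and 3777, an even split. Leaving out 0 h replicate 1, which makes the condition easier to meet, gave 3923 transcripts with the later libraries all higher.

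The calls were counted by abundance. Ranked by mean log2(RPKM + 1) over all 12 libraries and cut into 4 equal parts, the lowest part held 75 rises (2.10%) and 281 falls (7.87%), the next 118 rises (3.30%) and 375 falls (10.5%), the next 196 rises (5.49%) and 336 falls (9.41%), and the highest, from 45.3 RPKM upward, 374 rises (10.5%) and 309 falls (8.65%). After median-ratio scaling the rises numbered 91, 193, 304 and 558 from the lowest part to the highest and the falls 133, 121, 104 and 139. Both sets of counts share this ranking, which includes the 4 h and 6 h libraries, so a rise lifts the rank of its own transcript. Ranked by the 2 h libraries, which are in neither group, the rises numbered 134 (3.75%), 154 (4.31%), 181 (5.07%) and 294 (8.23%) from the lowest part to the highest and the falls 220 (6.16%), 338 (9.47%), 362 (10.1%) and 381 (10.7%). This ranking was chosen after seeing the data, and in it falls outnumbered rises in all 4 parts as deposited. After median-ratio scaling the same parts held 169, 242, 279 and 456 rises and 96, 114, 115 and 172 falls. Of the 330 tested non-coding transcripts, 56 rose (17.0%) and 28 fell (8.48%), and of the 13952 tested mRNAs, 706 rose (5.06%) and 1273 fell (9.12%). After scaling, 66 non-coding transcripts rose and 15 fell, and 1079 mRNAs rose and 482 fell.

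The largest gains in amount came from XM_002168126.2 and XR_181894.1, which were among the most abundant transcripts of the later libraries. XM_002168126.2 stood at 50207 and 49669 RPKM at 4 h and at 50120 and 59271 RPKM at 6 h, and the 0 h libraries held 3503 and 3942 RPKM. It ranked first in all 4 later libraries, with 3.23% to 3.87% of their RPKM, and ranked 50 and 41 in the 0 h libraries. It rose by 3.81 on the log2 scale (SE 0.29, limma adjusted p = 6.05e-05), a 14.1-fold ratio of mean RPKM. The transcript remained at 44764 and 41946 RPKM at 12 h and stood at 5075 and 8526 RPKM at 48 h. XR_181894.1, a predicted non-coding RNA, stood at 33989 and 21311 RPKM at 4 h and at 21386 and 21191 RPKM at 6 h, against 5945 and 4583 RPKM at 0 h. It rose by 2.20 on the log2 scale (SE 0.33, limma adjusted p = 0.00119). Its 12 h libraries held 22049 and 18478 RPKM and its 48 h libraries 998 and 2293 RPKM, so that the 48 h values lay below those of 0 h. At 2 h XM_002168126.2 stood at 3362 and 6890 RPKM, and XR_181894.1 at 7528 and 9401 RPKM, above its 0 h libraries and below those of 4 h and 6 h.

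The largest losses in amount were those of XM_004206952.1 and XR_181792.1. XM_004206952.1 stood at 2295 and 2742 RPKM at 4 h and at 2224 and 2626 RPKM at 6 h, against 8680 and 9745 RPKM at 0 h. It fell by 1.90 on the log2 scale (SE 0.15, limma adjusted p = 6.87e-05) and the groups did not overlap. At 2 h it was in between, at 6210 and 5869 RPKM. XR_181792.1 stood at 1952 and 2150 RPKM at 4 h and at 830 and 930 RPKM at 6 h, against 5242 and 7138 RPKM at 0 h. It fell by 2.19 (SE 0.40, limma adjusted p = 0.00311). Its 6 h libraries were both below its 4 h libraries, a log2 difference of −1.22 that did not pass the test (adjusted p = 0.153). At 48 h it stood at 3673 and 6557 RPKM.

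Of the 20 most abundant transcripts by mean RPKM at 4 h and 6 h, 10 had risen and 0 had fallen relative to 0 h, and 6 were non-coding. Of the 20 most abundant at 0 h, 1 had risen and 3 had fallen by 4 h and 6 h, and 5 were non-coding. Over all tested transcripts rises made up 5.34% and falls 9.11%. Each list was picked by a level that the calls compare, which favours rises in the later list and falls in the 0 h list, so nothing is read from these counts. The 2 lists had 8 transcripts in common.

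The largest changes on the log2 scale were those of transcripts near 0 in one group. XM_004210825.1 stood at 504, 556, 381 and 734 RPKM in the libraries of 4 h and 6 h, against below 0.001 RPKM in both 0 h libraries, and XR_181873.1 at 196, 197, 252 and 465 RPKM, against below 0.001 RPKM in both. Their log2(RPKM + 1) differences of 9.05 (SE 0.29, limma adjusted p = 2.01e-07) and 8.02 (SE 0.40, adjusted p = 4.99e-06) depend on the pseudocount and are no measure of fold. They differed at 48 h, where XM_004210825.1 stood at 445 and 659 RPKM and XR_181873.1 below 0.001 RPKM in both libraries. XM_004206511.1 did not reach 0.001 RPKM in any library of 4 h or 6 h, against 320 and 299 RPKM at 0 h (log2(RPKM + 1) difference −8.28, SE 0.18, adjusted p = 8.37e-09). At 2 h it stood at 63.9 and 52.3 RPKM. XM_004212948.1 was at most 0.00577 RPKM in the later libraries, against 140 and 137 RPKM at 0 h (difference −7.12, SE 0.46, adjusted p = 2.44e-05). Where a transcript sits near 0 its replicates agree almost by construction, so these SE partly reflect that floor.

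Such switches in listed RPKM were few. Closely related transcripts may share reads, and whether reads were assigned differently among them between the groups was not tested. At most 0.1 RPKM in both 0 h libraries and at least 10 RPKM in all 4 later libraries was found for 9 transcripts, 0.063% of those tested, 1 of them non-coding. The reverse, at least 10 RPKM in both 0 h libraries and at most 0.1 RPKM in all later ones, was found for 5 transcripts, or 0.035%. Leaving out 0 h replicate 1, which makes the condition easier to meet, raised the count of 9 to 53. That library listed 503 transcripts at 0 RPKM and 0 h replicate 2 listed 1834. With 0 h replicate 1 left out the count of 5 became 10, and with 0 h replicate 2 left out 9. Of the 9 transcripts that appeared, 2 were at least at 10 RPKM in both libraries at 2 h, 7 at 12 h and 4 at 48 h. Of the 5 that vanished, 2 were still at 10 RPKM or more in both libraries at 2 h, 0 at 12 h and 2 at 48 h.

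Among the non-coding transcripts, the largest rise was that of XR_181873.1 and the largest fall that of XR_181973.1. XR_181973.1 stood at 78.3 and 91.4 RPKM at 4 h and at 47.8 and 37.5 RPKM at 6 h, against 443 and 456 RPKM at 0 h. It fell by 2.89 on the log2 scale (SE 0.32, limma adjusted p = 2.76e-04). The lowest values were those of 6 h, and at 12 h it stood at 186 and 219 RPKM.

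**Figure D2:**
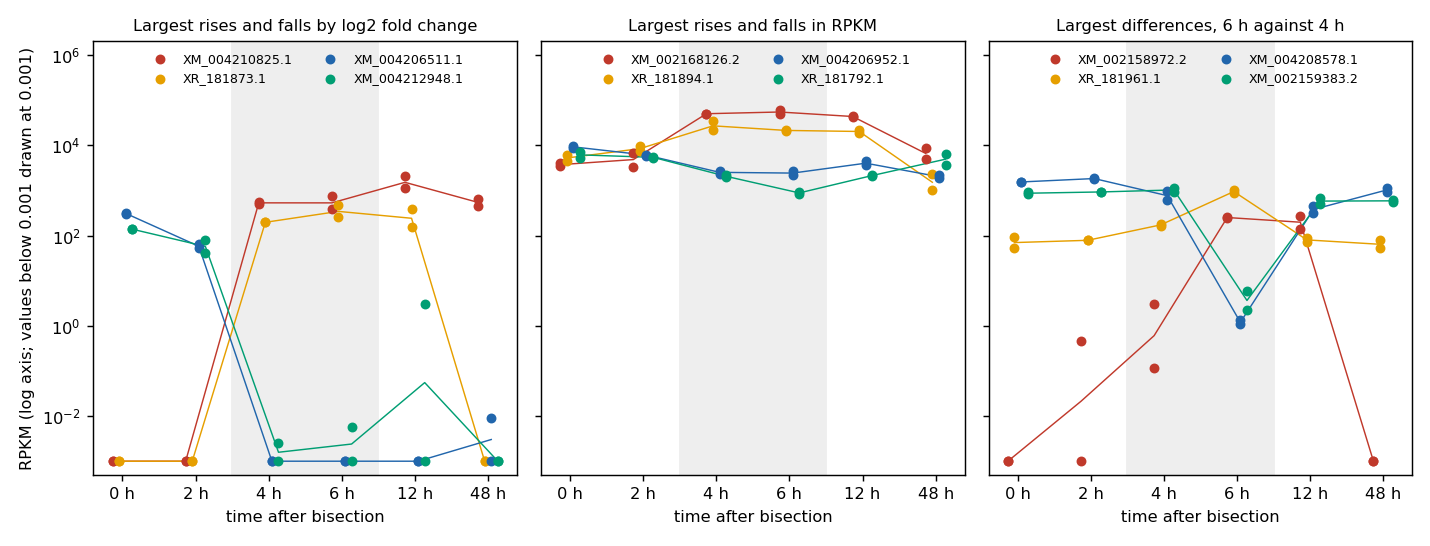
RPKM in each of the 12 libraries (points, log axis, values below 0.001 drawn at 0.001) by time after bisection, with lines through the geometric mean of each time and 4 h and 6 h shaded. The left panel shows the largest log2 changes of 4 h and 6 h against 0 h, the middle panel the largest changes in RPKM, where XM_002168126.2 stands at 49669 to 59271 RPKM in the shaded libraries, and the right panel the largest differences of 6 h against 4 h, where XM_004208578.1 and XM_002159383.2 dip at 6 h.

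Whether 4 h and 6 h form one state was asked by comparing them with each other. The error of this test came from all 12 libraries, so the spread between replicates of other times entered it. What that spread did to the number of calls was not tested beyond the fits below that leave libraries out. At 6 h, 19 transcripts were higher and 11 lower than at 4 h by the same rule, or 0.133% and 0.077% of the tested transcripts and 0.21% together. A fit of only those 4 libraries called 2, both lower, while weights per library gave 143. At an unadjusted limma p below 0.05 were 1874 transcripts in the fit of those 4 libraries and 849 in the fit of all 12. Leaving out 4 h replicate 1 left 6 calls, and leaving out 4 h replicate 2 left 8. Omitting 6 h replicate 1 gave 14 and omitting 6 h replicate 2 gave 4, while a fit lacking either 0 h library had 18 and one lacking either 48 h library 47. For 8458 transcripts (59.2%) the 95% interval of the 6 h minus 4 h difference lay within 1 of 0 on the log2 scale, so a change of that size or more was outside the interval. The intervals of the other transcripts reached a change of that size, either by their width or by lying away from 0, as for the called transcripts. Of the 763 rises against 0 h, 310 (40.6%) had an interval within 1 of 0, and of the 1301 falls, 819 (63.0%).

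Across transcripts, the correlation of log2(RPKM + 1) was 0.969 to 0.978 for the 4 pairs of a 4 h and a 6 h library, 0.982 within 4 h and 0.980 within 6 h. With 0 h it was 0.873 to 0.931 over 8 pairs, and within 0 h 0.948. With 12 h it was 0.937 to 0.952, about the 0.946 found within 12 h. With 2 h it was 0.915 to 0.941, against 0.975 within 2 h, and with 48 h 0.861 to 0.922. The same transcripts enter every pair. Of the 763 rises, 12 were higher at 6 h than at 4 h and 0 lower, and of the 1301 falls, 0 were higher and 3 lower. The median 6 h minus 4 h difference was 0.09 for the rises, −0.04 for the falls and −0.00467 for all tested transcripts. The spread between 4 h and 6 h entered the test that chose the rises and falls, so these counts are descriptive.

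The largest called differences within the group were dips and rises at 6 h, not all of them confined to 6 h. XM_004208578.1 stood at 1.08 and 1.32 RPKM at 6 h, against 597 and 977 RPKM at 4 h (limma adjusted p = 1.04e-06, log2 fold change −8.44, SE 0.25). It stood at 1545 and 1528 RPKM at 0 h and at 1855 and 1803 RPKM at 2 h, above its 4 h libraries. At 12 h it stood at 316 and 454 RPKM and at 48 h at 1150 and 903 RPKM. XM_002159383.2 stood at 2.28 and 5.80 RPKM at 6 h, against 1121 and 934 RPKM at 4 h (adjusted p = 5.34e-06, log2 fold change −7.76, SE 0.29), and held at least 504 RPKM at every other time. Below 10 RPKM in both 6 h libraries and above 500 RPKM in both 4 h libraries were 3 transcripts in all, a count made after their values were seen. All 3 were above 100 RPKM in each library of every other time. Whether reads shared with related transcripts entered these dips was not tested. XR_181961.1 did the opposite, with 856 and 1037 RPKM at 6 h, against 184 and 160 RPKM at 4 h (adjusted p = 0.0113, log2 fold change 2.45, SE 0.27) and 52.5 to 92.7 RPKM at all other times. XM_002158972.2 stood at 248 and 253 RPKM at 6 h, against 3.11 and 0.117 RPKM at 4 h (adjusted p = 0.00186, log2 fold change 6.87, SE 0.55). It was below 0.001 RPKM at 0 h and 48 h in all 4 libraries and at 275 and 141 RPKM at 12 h.

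Calls for 6 h against 4 h depend on few libraries. In the fit of only those libraries XM_002159383.2 (adjusted p = 0.112), XR_181961.1 (0.112) and XM_002158972.2 (0.115) did not pass. For XR_181961.1 the adjusted p was also above 0.05 when a library of 4 h (replicate 1, 0.107, or replicate 2, 0.150) or of 6 h (replicate 1, 0.0559, or replicate 2, 0.213) was left out, and it lay between 3.35e-04 and 0.213 over 24 alternatives. XM_004208578.1 passed in all 24.

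**Figure D3:**
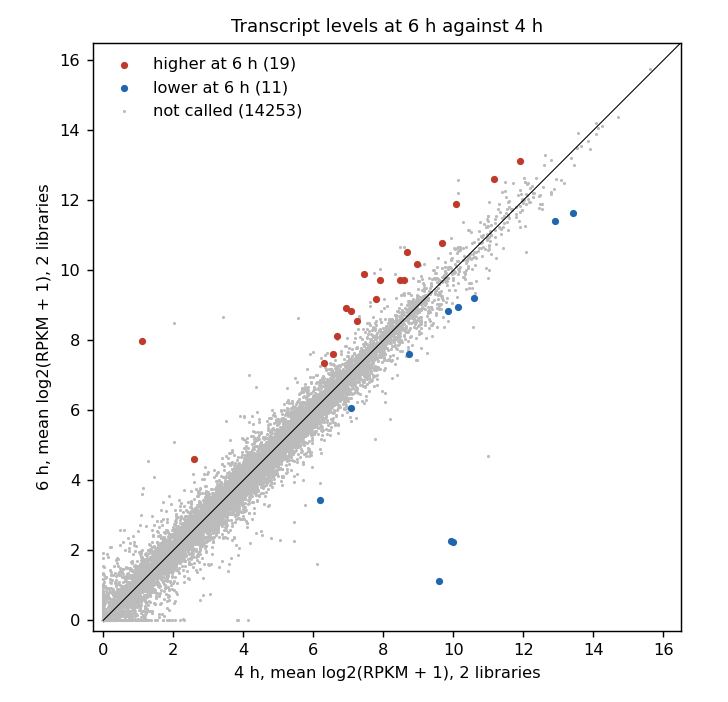
Mean log2(RPKM + 1) of each tested transcript in the 2 libraries of 6 h (vertical) against the 2 libraries of 4 h (horizontal), with equal levels on the diagonal line. The 19 transcripts called higher (red) and 11 called lower (blue) are few beside the 763 rises and 1301 falls against 0 h. That comparison had more libraries and narrower 95% intervals (median half-width 0.56 against 0.65 here), so the counts are not on equal terms. The 3 blue points near the bottom right are the transcripts below 10 RPKM at 6 h.

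Relative to 2 h, 585 transcripts were higher and 561 lower at 4 h and 6 h (4.1% and 3.93% of the tested transcripts, 8.02% together), with the median transcript at −0.19. Median-ratio scaling gave 784 and 322, moving the share of rises from 51.0% to 70.9%. Without 2 h replicate 1 the calls fell to 524, and without 2 h replicate 2 the falls to 359. XM_004210825.1 was the largest rise here too, at below 0.001 RPKM in both 2 h libraries. The largest fall was that of XM_004207219.1, which stood at 4.00 and 38.3 RPKM at 4 h and below 0.001 RPKM in both 6 h libraries, against 280 and 325 RPKM at 2 h. Its log2 fold change was −6.33 (SE 1.20, limma adjusted p = 0.00657). It did not pass without 2 h replicate 1 (adjusted p = 0.0598) or without 2 h replicate 2 (0.0545), and over 25 alternatives its adjusted p lay between 3.48e-04 and 0.0598. The Wnt3 difference from 2 h was 0.59 (SE 0.22) and did not pass (adjusted p = 0.0953). Over 24 alternatives the adjusted p lay between 0.0203 and 0.380 and the difference between 0.36 and 0.87, below 1 in each.

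At 12 h, 125 transcripts were higher and 166 lower than at 4 h and 6 h (0.875% and 1.16% of the tested transcripts, 2.04% together). Against 291 calls in the full fit, the fit lacking 4 h replicate 1 had 169, fits lacking 6 h replicate 1 or 6 h replicate 2 had 103 or 182, and fits lacking 12 h replicate 1 or 12 h replicate 2 had 176 or 147. Omitting 48 h replicate 1 gave 443 and omitting 48 h replicate 2 gave 441. Wnt3 changed by 0.21 with a 95% interval of −0.29 to 0.71 (limma adjusted p = 0.650). XM_004207219.1 showed the largest rise, to 155 and 147 RPKM at 12 h (adjusted p = 0.0388, log2 fold change 5.34, SE 1.20). Its levels were 221 and 228 RPKM at 0 h and 276 and 251 RPKM at 48 h, so the low values were those of 4 h and 6 h. XM_004207720.1 showed the largest fall, with 47.6 and 0.134 RPKM at 12 h, against 352 and 297 RPKM at 4 h and 947 and 962 RPKM at 6 h (adjusted p = 0.0425, log2 fold change −6.23, SE 1.43). It stood between 1.68 and 42.2 RPKM in all libraries of 0, 2 and 48 h. Both calls lay close to the threshold. That of XM_004207219.1 held in 10 of 25 alternatives, and its adjusted p ranged from 0.00515 to 0.147. Leaving out any 1 library other than 4 h replicate 2 and those of 48 h ended it, at 0.0580 to 0.147. That of XM_004207720.1 held in 11 of 25, and its adjusted p ranged from 0.0238 to 0.230. Leaving out any 1 library other than 12 h replicate 1 and those of 48 h ended it, at 0.0598 to 0.230.

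The lists chosen by 4 h and 6 h against 0 h were followed through the times that did not choose them. The median log2(RPKM + 1) of the rises was 4.89 and 4.87 in the 2 h libraries, 6.07 and 5.97 at 12 h and 5.37 and 5.31 at 48 h. In the libraries that chose the list it was 6.18 to 6.34 at 4 h and 6 h, against 4.60 and 4.25 at 0 h. For the falls it was 4.66 and 4.58 at 2 h, 3.82 and 3.89 at 12 h and 3.92 and 3.98 at 48 h, beside 3.74 to 3.84 at 4 h and 6 h, against 5.05 and 5.22 at 0 h. Over all tested transcripts the medians were 4.31 and 4.27 at 2 h, 4.08 and 4.15 at 12 h and 4.06 and 4.00 in the 48 h libraries. They were 4.12 to 4.16 at 4 h and 6 h, against 4.44 and 4.41 at 0 h. At the times that did not choose the lists, the rises stood higher at 12 h than at 2 h or 48 h. The falls had medians below 4 at 12 h and 48 h. The levels at 0 h, 4 h and 6 h follow from the choice of the lists.

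**Figure D4:**
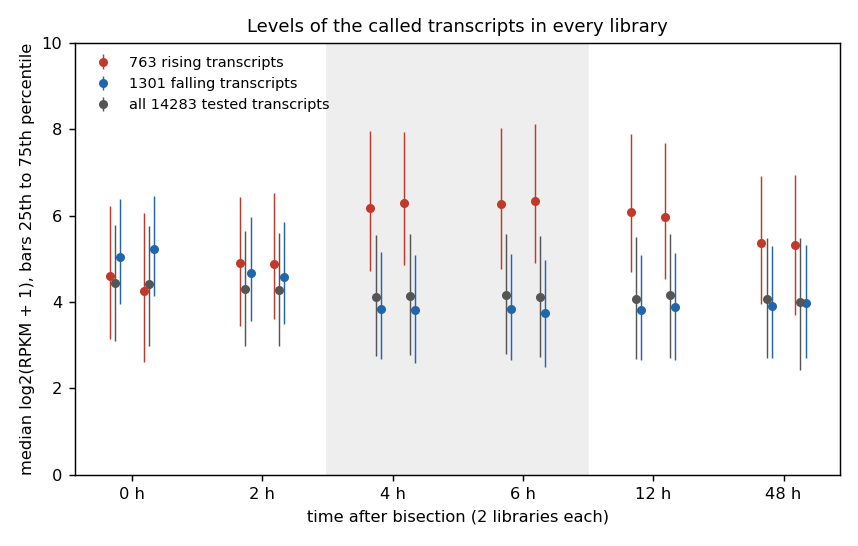
Median log2(RPKM + 1) of the 763 rises (red), the 1301 falls (blue) and all 14283 tested transcripts (grey) in each of the 12 libraries by time after bisection, with bars from the 25th to the 75th percentile and 4 h and 6 h shaded. The red medians are 6.18 to 6.34 in the shaded libraries and 5.97 or more at 12 h, and the blue medians stay near the grey ones from 4 h on.

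In amount, the 763 rises held 26.3% to 29.5% of all RPKM in the 4 h and 6 h libraries, against 7.18% and 6.99% at 0 h. Without XM_002168126.2 and XR_181894.1 the shares were 20.8% to 24.2% at 4 h and 6 h, against 6.50% and 6.38% at 0 h, so most of the gain was spread over other transcripts. The libraries that did not choose the list gave 8.80% and 9.86% at 2 h, 23.9% and 21.9% at 12 h and 12.5% and 12.0% in those of 48 h. The falls held 4.57% to 5.19% at 4 h and 6 h, against 14.0% and 15.1% at 0 h. At 48 h their share was 8.35% and 9.85%. RPKM shares weigh each transcript per unit of length and are not shares of RNA molecules. In whole tissue, fewer cells of a type and less RNA per cell cannot be told apart.

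**Figure D5:**
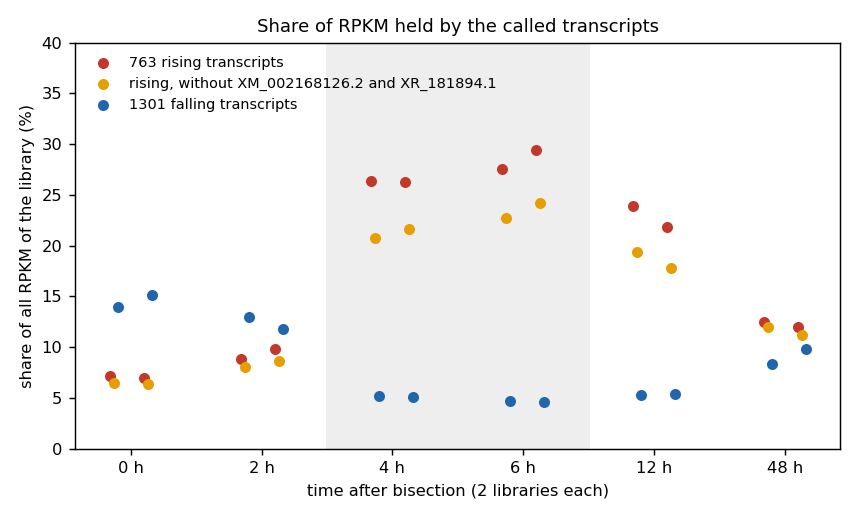
Percentage of all RPKM of a library held by the 763 rises (red), by the rises without XM_002168126.2 and XR_181894.1 (orange) and by the 1301 falls (blue), for each of the 12 libraries by time after bisection, with 4 h and 6 h shaded. The red points stand at 26.3% to 29.5% in the shaded libraries and at 12.0% and 12.5% at 48 h.

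RPKM totals were 1490572 to 1535758 in the 4 h and 6 h libraries, against 1395711 and 1393545 at 0 h, and the median RPKM was 10.9 to 11.4 in the later libraries, against 14.5 and 13.6. The 0 h libraries differed in how many transcripts were listed at 0, 503 in replicate 1 and 1834 in replicate 2, while the later ones listed 512 to 774. Replicates were closest in the 4 h and 6 h libraries, where the SD of their log2 difference was 0.425 and 0.455. The 2 h pair had 0.481, the 0 h pair 0.732, the 12 h pair 0.756 and the 48 h pair 1.02. The part of these differences between libraries in the calls was not tested beyond the fits that leave out each library.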

How the data were processed

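Poly(A) RNA was read as strand-specific 50 bp single ends, per the labels' protocols, and the submitters' processing notes name Bowtie 0.12.8. The build, read assignment and filters were not stated in these sources. The authors deposited RPKM values, 1 column per library. Each library lists between 1489 and 1968 values above 0 but below 0.001, so read depth is unknown and no counting interval is given, and closely related transcripts may share reads.

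RPKM was analysed as log2(RPKM + 1), which understates changes of weak transcripts. limma 3.58.1 under R 4.3.3, with a variance trend, was fitted to all 12 libraries, with 4 h and 6 h as one group (7 residual degrees of freedom). For 6 h against 4 h a mean per time was fitted (6 degrees). Tests were two-sided. Samples were grouped by title. No label says that replicates came from separate days, so p-values measure the spread between these pools.

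Named transcripts are Wnt3, the 2 rises and 2 falls largest by log2 fold change and by mean RPKM for 4 h and 6 h against 0 h, the same by log2 fold change for 6 h against 4 h, the largest rise and fall against 2 h and at 12 h, and the largest non-coding rise and fall. Members and lists were chosen with earlier results of these data known. Of all identifiers, 1 matched a RefSeq gene list for the assembly HydraT2T_AEP. On data simulated for 4 h and 6 h against 0 h over 14283 transcripts, 75 of 100 changes of 1.5 and 99 of 100 changes of 3 (log2) were recovered, with 12 calls among 14083 unchanged transcripts. For 6 h against 4 h these were 52, 90 and 5. The simulated noise was normal, with the same spread in every library, no floor at 0 and no shift between libraries. These rates therefore do not cover errors from scaling or from libraries of unequal spread.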

Additional observations from a re-analysis of the deposited data

Results flagged for a closer look

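Of the 16 named transcripts, the 14 above 1 RPKM in a library of 4 h or 6 h were examined, with 4 library measures, for a library far from the others among those 4. XM_004206511.1 and XM_004212948.1, near 0 RPKM in all of them, were not examined. By Dixon's ratio, the gap to the nearest library over the whole range, 3 of these 18 values stood above the 95% critical value for 4 samples, and chance flags about 1 in 20. XM_002168126.2 was high in 6 h replicate 2, at 59271 RPKM (ratio 0.944), and its other libraries lay between 49669 and 50207 RPKM. XR_181894.1 was high in 4 h replicate 1, at 33989 RPKM (ratio 0.985), and its other libraries lay between 21191 and 21386 RPKM. XM_004207219.1 was at 38.3 RPKM in 4 h replicate 2 (ratio 0.896) and at 4.00 RPKM or less in the other libraries.

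For 4 named transcripts the 6 h and 4 h libraries differed by limma's test. They were named for having the largest changes in that comparison, so this restates how they were chosen. The log2 fold change of 6 h against 4 h was 6.87 for XM_002158972.2, 2.45 for XR_181961.1, −8.44 for XM_004208578.1 and −7.76 for XM_002159383.2.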

How the results depend on the processing

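Among 325 recomputed counts, 249 lay within a factor of 1.5 of the value in the text and 76 did not. Of 516 values of named transcripts, 477 kept their direction and their side of the threshold, 39 crossed it and 0 reversed. For 4 h and 6 h against 0 h, a pseudocount of 5 gave 1365 calls with 744 falls, median-ratio scaling 1146 rises and 497 falls, and quantile normalization 724 falls. For 6 h against 4 h, no variance trend gave 16 calls (9 higher, 7 lower), weights per library 143 (70 and 73), a fit of only the libraries compared 2 (0 and 2), and the 48 h libraries left out, an alternative chosen after seeing the data like the mean of at least 10 RPKM, 47 with 24 lower. Relative to 2 h, falls numbered 345 with a pseudocount of 5 and 322 with median-ratio scaling. At 12 h against 4 h and 6 h, weights per library gave 81 rises, and the fit without 48 h libraries 440 calls with 192 rises. The counts of groups that do not overlap were 3773 and 3777 after median-ratio scaling. The causes of these shifts were not tested.

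With 1 library left out, the counts for 4 h and 6 h against 0 h ranged from 1333 to 2290 calls (490 to 921 rises, 843 to 1452 falls), for 6 h against 4 h from 4 to 47 (1 to 23 higher, 3 to 24 lower), against 2 h from 524 to 1280 (309 to 636 rises, 215 to 644 falls), and for 12 h from 103 to 443 (47 to 194 rises, 56 to 249 falls). Libraries all higher numbered 2319 to 3923 and all lower 6515 to 7985, appearing transcripts 9 to 53 and vanishing ones 5 to 10. Fewer libraries make these last conditions easier to meet.

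The replicate numbers did not pair the libraries: the deviations of same-numbered libraries correlated above 0.1 for 1 of 15 pairs of times (lowest −0.0976, highest 0.234). With the replicate number as a block, 6 h against 4 h gave 13 calls (7 higher, 6 lower), and 4 h and 6 h against 0 h gave 2054 calls. Unknown read depth limits statements on weak transcripts.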
